A study of Mus musculus with 8 samples.

Results

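The 8 genes Trem2, Tyrobp, Gpnmb, Spp1, Cd9, Lgals3, Syk and Plcg2 were followed through single-nucleus RNA counts of visceral white adipose tissue from 8 mice. They were taken by symbol from the feature list, where all 8 were found among 56749 features. Their identifiers there are ENSMUSG00000023992 for Trem2, ENSMUSG00000030579 for Tyrobp, ENSMUSG00000029816 for Gpnmb and ENSMUSG00000029304 for Spp1. Those of the other 4 are ENSMUSG00000030342 for Cd9, ENSMUSG00000050335 for Lgals3, ENSMUSG00000021457 for Syk and ENSMUSG00000034330 for Plcg2.

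Trem2 is a surface receptor of macrophages that binds lipids and lipoproteins, and it has no signalling tail of its own. It signals through the adaptor Tyrobp (DAP12), whose phosphorylated motif recruits the kinase Syk, which in turn activates the phospholipase Plcg2. In obese adipose tissue, macrophages that gather around dying adipocytes and take up their lipid carry Trem2, the tetraspanin Cd9 and the glycoprotein Gpnmb, and they are known as lipid-associated macrophages. Lgals3 (galectin-3) and Spp1 (osteopontin) are secreted or surface-bound proteins of the same cells, and both are often used as their markers.

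The mice formed 4 groups of 2, given here in the order of the labels' replicate names, and in each mouse 1 copy of the p21 locus (Cdkn1a, a cell-cycle inhibitor) was modified. Mice with the genotype p21+/mCherry, in which that allele carries a red fluorescent protein, ate a standard diet (mCherry SD, rep144 and rep146) or a high-fat diet (mCherry HFD, rep128 and rep129). Mice with p21+/mCherry-Tert (Tert HFD, rep134 and rep136) or p21+/mCherry-TertCi (TertCi HFD, rep138 and rep140) ate the high-fat diet only. Tert encodes the catalytic subunit of telomerase, here under the p21 promoter, and the labels do not say how TertCi differs from it. Unmodified mice, a Tert group on the standard diet, and the ages and sexes of the mice were not part of what was analysed here. The series' design text names the stromal vascular fraction and p21+/- mice in place of whole tissue and p21+/mCherry on the high-fat diet, and the sample labels were followed. Each mouse gave 1 frozen tissue sample, so the p-values measure the spread between single mice. Per the labels' protocols the tissue was handled in batches of 2 mice in random order. Which mice shared a batch is not given, so a batch and a group cannot be told apart here.

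The 8 libraries held 23378488 to 139749876 unique molecular identifiers (UMIs, 1 per captured RNA molecule), and 30209 barcodes were called nuclei, 1978 to 7433 per library. The least number of UMIs that made a barcode a nucleus lay between 987 (Tert HFD rep136) and 4705 (mCherry HFD, rep128), and median UMIs per nucleus from 1682 to 7134, both in Tert HFD. Pairs of libraries shared 0 to 14 barcodes. The inserted alleles could not be checked from these counts. Over all barcodes mCherry had 0 to 17 UMIs per library, and Tert was at 2.01 to 2.66 CPM (a gene's UMIs as a share of all UMIs in the same set of barcodes, scaled to a common total) in Tert HFD against 3.27 to 3.58 in mCherry HFD. Whether the inserted transcripts end in the sequence that the 3' chemistry counts is not stated, so the groups are named by their labels.

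The promoters of 7 of the 8 genes were in RefSeq's table for GRCm38.p6, and Tyrobp was not matched. The submitters' notes give another build, mm39, for the counts, so the coordinates below are those of GRCm38.p6 only. Each sequence is the 250 bases before the transcription start, read 5′ to 3′ on the gene's strand. Those printed are the receptor Trem2, Gpnmb as the member with the widest diet response among those with UMIs in every group, Spp1 as the one at 0 in macrophage-like nuclei of 2 groups, and Plcg2 as the one that fell with diet in those nuclei. Capitals mark motifs searched for on both strands.
Trem2, chr17:48346151-48346400, plus strand: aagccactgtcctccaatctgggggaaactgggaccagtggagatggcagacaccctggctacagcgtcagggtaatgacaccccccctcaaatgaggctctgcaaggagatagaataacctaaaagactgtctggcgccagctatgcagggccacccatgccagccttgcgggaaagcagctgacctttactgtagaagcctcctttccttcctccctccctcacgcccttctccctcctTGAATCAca
Gpnmb, chr6:49036268-49036517, plus strand: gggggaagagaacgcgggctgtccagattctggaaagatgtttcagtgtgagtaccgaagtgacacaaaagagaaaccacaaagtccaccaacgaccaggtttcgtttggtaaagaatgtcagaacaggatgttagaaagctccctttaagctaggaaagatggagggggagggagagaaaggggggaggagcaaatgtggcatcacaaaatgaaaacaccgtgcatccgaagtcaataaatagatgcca
Spp1, chr5:104434861-104435110, plus strand: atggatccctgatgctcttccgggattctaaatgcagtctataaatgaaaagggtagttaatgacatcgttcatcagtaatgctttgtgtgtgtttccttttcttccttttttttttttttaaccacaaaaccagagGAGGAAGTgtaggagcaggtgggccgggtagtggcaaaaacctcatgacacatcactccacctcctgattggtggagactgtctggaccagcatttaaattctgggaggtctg
Plcg2, chr8:117498025-117498274, plus strand: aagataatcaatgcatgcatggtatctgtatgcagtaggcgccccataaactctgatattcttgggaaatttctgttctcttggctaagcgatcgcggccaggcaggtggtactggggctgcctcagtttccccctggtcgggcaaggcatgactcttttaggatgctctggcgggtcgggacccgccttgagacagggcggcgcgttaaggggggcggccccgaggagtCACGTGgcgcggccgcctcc

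Motifs were searched by letters: CACGTG and CATGTG, forms of the E-box that factors of the Mitf and Tfe family can bind, TGANTCA, an AP-1 motif, and GAGGAAGT, a motif of the Ets factor Spi1. They were chosen after the sequences had been seen. Trem2 held TGANTCA at -9 to -3 from its start, as did 6.75% of 32851 promoters of the same length. CACGTG lay at -20 to -15 in Plcg2 and in 6.02% of all promoters, and GAGGAAGT lay at -113 to -106 in Spp1 and in 2.44%. The promoter of Cd9 held CATGTG on the opposite strand at -38 to -33, as did 12.3% of all. The table has another start for Spp1 and for Syk, and the window of that other Spp1 start held no motif. The windows of Gpnmb, Lgals3 and Syk held none of the 4 motifs. No motif was found in more than 1 of the 7 genes.

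Nuclei were grouped without the 8 genes and named by other markers, and a class is called X-like for that reason. Of 30 clusters, 5 were macrophage-like by genes such as Adgre1, Csf1r and Mertk, and they held 8175 nuclei. They made up 3.65 and 5.04% of nuclei in mCherry SD, 49.1 and 48.7% in mCherry HFD, 24.1 and 26.1% in Tert HFD, and 16.8 and 12.6% in TertCi HFD. Another 10 clusters carried markers of more than 1 lineage. These mixed clusters held 55.5 and 48.7% of nuclei in mCherry SD and 18.2 to 32.7% in the libraries of the other groups. They also held 55.3 to 68.8% of the Trem2 UMIs of called nuclei in mCherry SD, where macrophage-like nuclei held 6.25 to 18.4%. Values for mCherry SD within a named class leave these nuclei out.

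Trem2 was highest in macrophage-like nuclei in each of the 4 groups. In mCherry HFD its level was 106.8 CPM ± 15.8 (SD, n = 2) in macrophage-like nuclei and 71.3 ± 15.4 in endothelial-like nuclei. Mural-like (55.2 ± 2.59), mesothelial-like (50.2 ± 5.67) and dendritic-like nuclei (43.3 ± 32.8) came next and overlapped each other. The lowest levels of Trem2 were those of adipocyte-like (22.9 ± 9.61) and progenitor-like nuclei (15.5 ± 0.540). Dendritic-like nuclei also overlapped endothelial-like and adipocyte-like nuclei. In TertCi HFD, macrophage-like nuclei had 21.9 CPM ± 1.38 of Trem2 and, of the classes with 20 or more nuclei in both mice, no other had a mouse above 8.13.

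The other members differed in where they were found. Tyrobp, Gpnmb, Lgals3 and Syk were also highest in macrophage-like nuclei in all 4 groups, each with a range that did not overlap that of the next class. Plcg2, which B cells and dendritic cells also use, was highest in dendritic-like nuclei of mCherry HFD at 311.4 CPM ± 0.952, above endothelial-like (136.7 ± 18.6) and macrophage-like nuclei (134.1 ± 7.33), which overlapped. Cd9, a tetraspanin of many cell types, was highest in progenitor-like nuclei of mCherry SD at 69.6 CPM ± 7.19, against 27.7 and 14.3 CPM in the 2 mice's macrophage-like nuclei. In mCherry HFD, Cd9 in macrophage-like (155.8 ± 2.07) and endothelial-like nuclei (153.3 ± 9.96) overlapped.

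**Figure D1:**
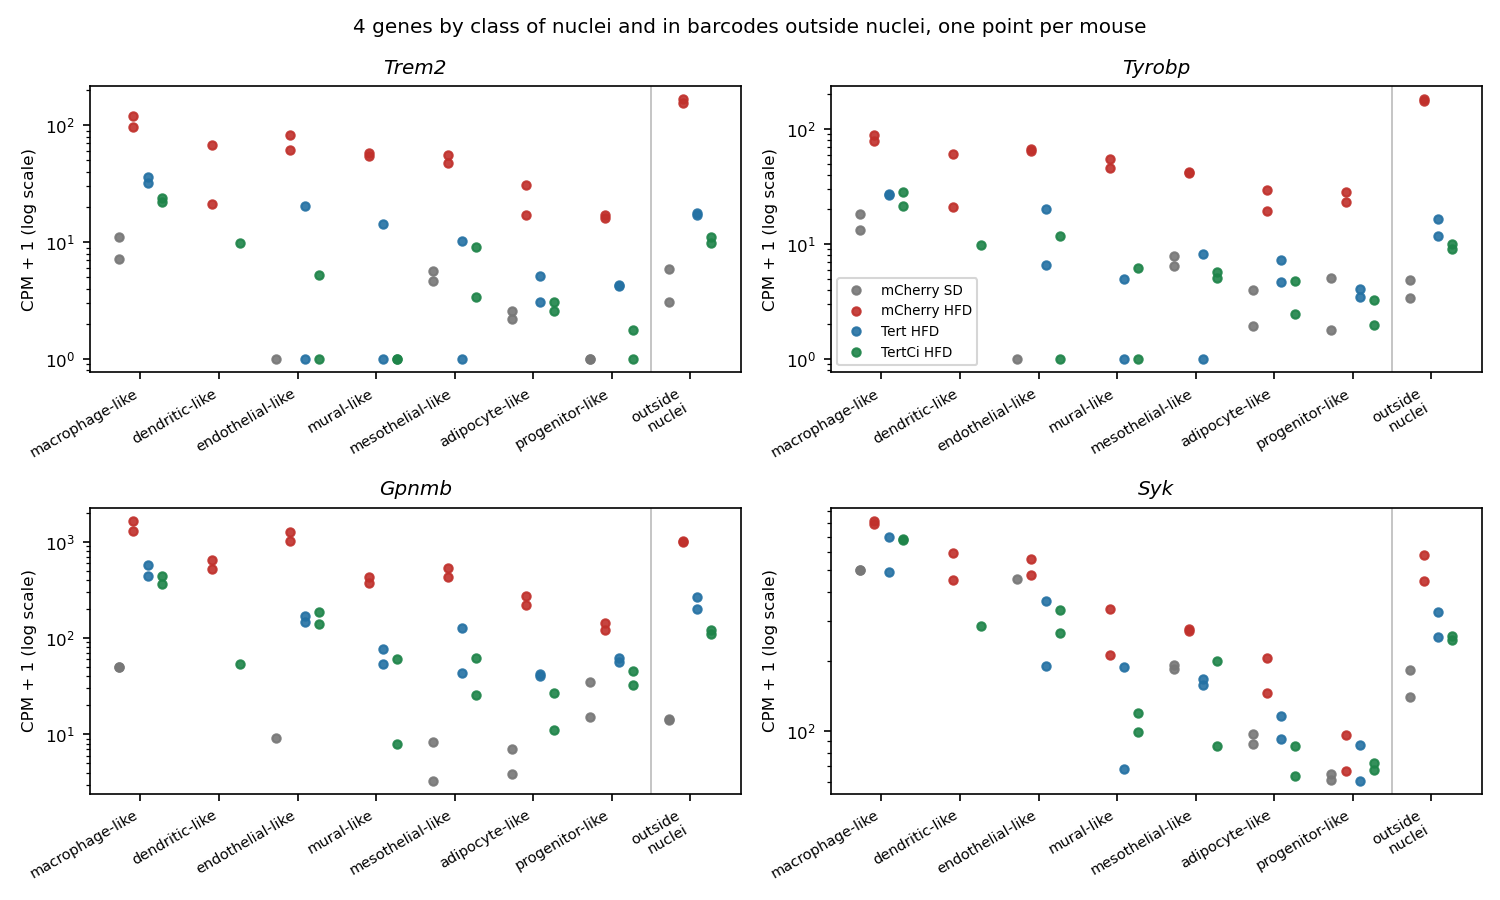
Level (CPM + 1, log axis) of Trem2, Tyrobp, Gpnmb and Syk in 7 classes of nuclei and in barcodes outside nuclei, with 1 point per mouse coloured by group and classes of under 20 nuclei in a library left out. For all 4 genes the macrophage-like points are above the adipocyte-like and progenitor-like points of the same group, and for Trem2, Tyrobp and Gpnmb the mCherry HFD points are above those of the other groups in every class shown and outside nuclei.

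RNA outside nuclei carried the same genes. In barcodes that were not called nuclei, Trem2 was at 153.2 and 166.7 CPM in mCherry HFD, above the 117.9 and 95.6 CPM of its macrophage-like nuclei. It was at 2.07 and 4.90 CPM outside nuclei in mCherry SD, 16.8 and 16.0 in Tert HFD, and 8.83 and 10.1 in TertCi HFD. Tyrobp (175.4 and 181.2 CPM), Cd9 (184.3 and 223.1) and Spp1 (24.7 and 38.0) outside nuclei of mCherry HFD also exceeded their macrophage-like levels given below. Gpnmb, Lgals3, Syk and Plcg2 were lower outside nuclei in both of these mice. In Tert HFD, Tyrobp outside nuclei was at 15.6 and 10.8 CPM, below its macrophage-like level. Summed macrophage markers outside nuclei were also highest in mCherry HFD, with 641.0 to 681.9 CPM in mCherry SD against 2399 to 2723 in mCherry HFD, 942.7 to 1666 in Tert HFD and 1041 to 1070 in TertCi HFD. Free RNA of this kind can enter droplets that hold a nucleus, and its part in the differences below was not tested.

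Within macrophage-like nuclei, 7 of the 8 genes rose with the high-fat diet and 1, Plcg2, fell. Calls are at a p of 0.05 after Benjamini-Hochberg adjustment over all genes, from the quasi-likelihood fit of edgeR to UMIs summed per mouse. Of the 13267 genes tested there, 11.4% rose and 9.14% fell with diet. Against the same mCherry HFD mice, 6 of 8 were lower in Tert HFD (11% of all genes), and in TertCi HFD 6 were lower (14.2%) and 1 was higher (9.7%). With diet the count was 5 without rep144 or rep146, and in TertCi HFD it was 4 without rep138. A narrower list of markers in naming leaves out 1 macrophage-like cluster of 3021 nuclei, with Hmga2 and Gpnmb among its leading genes. Of these nuclei, 2189 and 752 came from the mCherry HFD mice, so that naming mainly removes nuclei of that group. With it the count was 5 with diet and 3 in each of the Tert groups. The 3 comparisons share the mCherry HFD mice and are not independent of each other. The median log2 fold change of the 8 genes was 2.89 with diet, -1.27 in Tert HFD and -1.55 in TertCi HFD, beside 0.11, -0.05 and -0.09 over all genes tested. Spp1 passed the filter on low counts through the mCherry HFD libraries, where it was high, so its calls are descriptions. Of the 7 others, 6 rose and 1 fell with diet, 5 were lower in Tert HFD, and 5 were lower and 1 higher in TertCi HFD. The ribosomal RNA gene Rn18s-rs5 was lower in both mCherry HFD mice than in the other 6 in these nuclei (not tested), at 2956 and 6578 CPM in mCherry HFD, 40959 and 33751 in mCherry SD, 8365 and 64275 in Tert HFD, and 21154 and 39482 in TertCi HFD, and its part in the members' values was not tested.

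The receptor Trem2 was at 6.17 and 9.99 CPM in mCherry SD (9 UMIs in both libraries together), 117.9 and 95.6 in mCherry HFD, 31.0 and 34.8 in Tert HFD, and 22.8 and 20.9 in TertCi HFD. No group overlapped another. With diet it rose 11.1-fold (log2 fold change 3.47, SE 0.349, adjusted p = 4.37e-05, edgeR). It was lower by 1.58 on the log2 scale in Tert HFD (log2 fold change -1.58, SE 0.214, adjusted p = 0.000759) and at -2.12 in TertCi HFD (SE 0.228, adjusted p = 0.000143), in the same edgeR fit. These 3 calls of Trem2 held under all 17 alternative settings tried, with the diet value at 2.82 with the narrower naming. Among the 17, assigning mixed clusters to their best lineage left the macrophage-like nuclei and their subclasses unchanged. That setting could not alter a call of any member in them.

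The adaptor Tyrobp, which carries the signal of Trem2 and of several other receptors, followed the same order at smaller folds. Its levels were 12.3 and 17.1 CPM in mCherry SD, 87.2 and 78.4 in mCherry HFD, 26.0 and 25.7 in Tert HFD, and 20.4 and 27.2 in TertCi HFD. The mCherry HFD mice were above all others, while Tert HFD and TertCi HFD overlapped. The log2 fold change of Tyrobp was 2.28 with diet (SE 0.316, adjusted p = 0.000407), -1.55 in Tert HFD (SE 0.223, adjusted p = 0.00102) and -1.71 in TertCi HFD (SE 0.234, adjusted p = 0.000463) in edgeR. All 3 calls also held under the 17 alternatives.

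Gpnmb, a glycoprotein induced in lysosome-loaded macrophages, showed the largest diet response among the members with UMIs in every group. It was at 49.3 and 48.5 CPM in mCherry SD and at 1661 and 1298 in mCherry HFD, a 27.3-fold rise (log2 fold change 4.77, SE 0.274, adjusted p = 2.46e-06, edgeR). Gpnmb was at 437.1 and 568.7 CPM in Tert HFD and 361.6 and 435.8 in TertCi HFD. All high-fat libraries were above all standard-diet libraries, and the mCherry HFD pair was above the other 4. The log2 fold changes against mCherry HFD were -1.39 in Tert HFD (SE 0.205, adjusted p = 0.00117) and -1.74 in TertCi HFD (SE 0.208, adjusted p = 0.000232) in the same edgeR fit. With the narrower naming the diet value of Gpnmb was 3.13, it did not pass in either Tert comparison, and its value in Tert HFD was 0.10.

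Spp1, the secreted phosphoprotein osteopontin, was the sparsest member. Its levels in macrophage-like nuclei were 0 in both mCherry SD mice, 11.2 and 15.9 CPM in mCherry HFD, 2.62 and 0.756 in Tert HFD, and 0 in both TertCi HFD mice. The pooled count of 0 in mCherry SD allows up to 2.93 CPM, so Spp1 was at least 4.05-fold higher in mCherry HFD. In TertCi HFD the 0 allows up to 0.602 CPM over the group, at least 19.7-fold lower than in mCherry HFD. The Tert HFD mice were also below both mCherry HFD mice, at a log2 fold change of -2.53 (SE 0.512). These floors cover counting error only. No p is given for Spp1, which entered the fit through the group where it is high. Its edgeR call with diet was lost without rep144 or rep146 and with the narrower naming, that in Tert HFD without rep128 or rep129, and that in TertCi HFD without rep138.

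The tetraspanin Cd9 and the lectin Lgals3 rose by like amounts with diet. Cd9 was at 27.7 and 14.3 CPM in mCherry SD, 157.3 and 154.4 in mCherry HFD, 54.2 and 74.9 in Tert HFD, and 51.9 and 55.4 in TertCi HFD. Lgals3 was at 123.3 and 142.7 CPM, 1174 and 1035, 518.5 and 527.1, and 393.1 and 504.8 in the same order. For both genes mCherry SD was lowest and mCherry HFD highest, and for neither did these 2 groups overlap any other. Their log2 fold changes with diet were both 2.89 (SE 0.343 for Cd9 and 0.198 for Lgals3), with adjusted p = 0.000148 and 4.23e-06 in edgeR. Against mCherry HFD, Cd9 was at -1.15 in Tert HFD and -1.39 in TertCi HFD (edgeR adjusted p = 0.00553 and 0.00173), and Lgals3 at -0.92 and -1.14 (0.00349 and 0.000783). With the narrower naming neither gene passed in Tert HFD or TertCi HFD, and Lgals3 was at 0.066 in Tert HFD. With diet the values were 1.82 for Cd9 and 1.74 for Lgals3 under that naming, and 2.26 for Cd9 without rep146. The TertCi call of Cd9 was also lost without rep138.

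The 2 enzymes behind the receptor moved little and not together. Syk, the tyrosine kinase recruited by Tyrobp, was at 499.4 and 498.1 CPM in mCherry SD, 821.1 and 791.1 in mCherry HFD, 696.8 and 490.8 in Tert HFD, and 678.8 and 678.3 in TertCi HFD. Plcg2, the phospholipase that Syk activates, was at 172.6 and 175.5 CPM in mCherry SD, 128.9 and 139.3 in mCherry HFD, 158.9 and 134.6 in Tert HFD, and 161.7 and 170.4 in TertCi HFD. With diet Syk rose by 0.54 on the log2 scale (SE 0.152, adjusted p = 0.0265) and Plcg2 fell by 0.53 (SE 0.164, adjusted p = 0.0377), both in edgeR. The Tert HFD mice overlapped at least 1 other group for both genes. Neither gene passed there (adjusted p = 0.180 for Syk and 0.214 for Plcg2 by edgeR), and in TertCi HFD Plcg2 alone passed, at a log2 fold change of 0.46 (SE 0.151, adjusted p = 0.0416). Plcg2 did pass as higher in Tert HFD in 3 of the 17 alternatives (putative doublets kept, the members among the variable genes, and Leiden resolution 2.0), at up to 0.52 and an edgeR adjusted p down to 0.0230. The diet calls of Syk and Plcg2 held in 11 and 8 of the 17 alternatives and the TertCi call of Plcg2 in 9. Many of the losses came from leaving out a mouse, which leaves 1 in its group, and others came from the processing. Over the 17 alternatives the diet values ran from 0.45 to 0.66 for Syk and from -0.70 to -0.33 for Plcg2. The TertCi value of Plcg2 ran from 0.25 to 0.86.

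**Figure D2:**
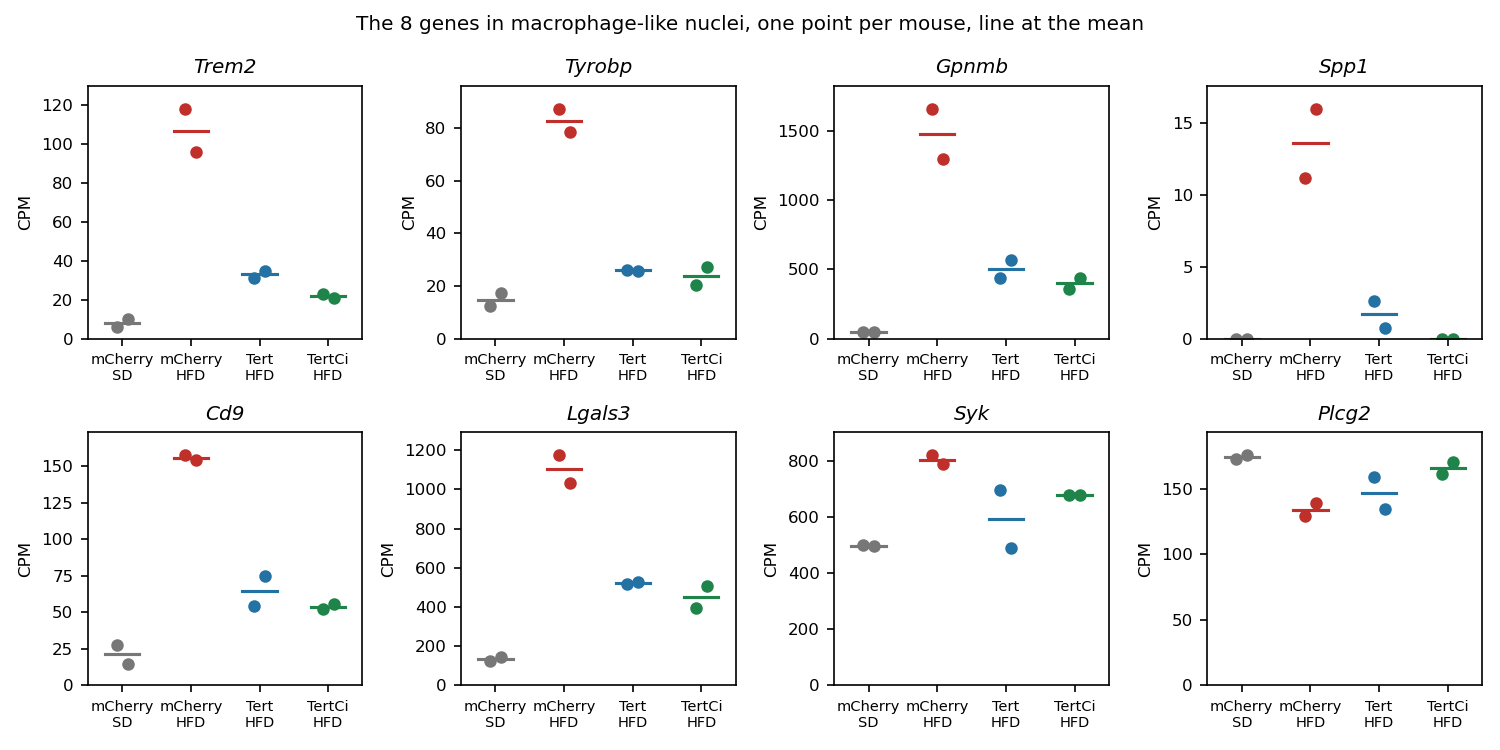
Level (CPM) of each of the 8 genes in macrophage-like nuclei, with 1 point per mouse and a line at the group mean of 2 mice. For Trem2, Tyrobp, Gpnmb, Spp1, Cd9 and Lgals3 both mCherry HFD points are above all others, and for Plcg2 both are below the mCherry SD and TertCi HFD points.

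No member passed between Tert HFD and TertCi HFD in the edgeR fits as reported. Spp1, at 0 UMIs in TertCi HFD, was at least 3.77-fold higher in Tert HFD over pooled macrophage-like nuclei. In lipid-associated-like nuclei it was at least 2.83-fold higher. These floors cover counting error only, and Spp1 was higher in rep134 than in rep136. In edgeR 0 of 8 passed in macrophage-like nuclei, as did 0 of 13267 genes (0%), with 470 genes at an unadjusted p under 0.05. The log2 fold change of Trem2 in Tert HFD against TertCi HFD was 0.54 (SE 0.244), and that of Gpnmb was 0.34 (SE 0.205). In called nuclei as a whole 0 of 8 passed as well, where DESeq2 called 3 members and a fit with no filter on low counts called 4. The shares of all genes called in these 2 other fits are not given, so whether the members stood out there cannot be read. A p above the threshold with 2 mice a group does not show that the levels were the same.

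The makeup of the macrophage-like class differed between groups. Reclustering gave 6 subclusters, named by markers that are not members: 4 lipid-associated-like (by Lpl, Plin2, Mmp12 and others) and 2 perivascular-like (by Lyve1, F13a1, Timd4 and others). Lipid-associated-like nuclei were 6.45 and 6.62% of macrophage-like nuclei in mCherry SD, 79.7 and 80.4% in mCherry HFD, 27.6 and 60.4% in Tert HFD, and 29.3 and 34.0% in TertCi HFD. Most of those of the Tert groups lay in 1 subcluster whose 10 leading genes include the ribosomal RNA gene Rn18s-rs5. These hold none of the lipid-associated markers, so the name rests on the markers counted as raised. The leading genes of the subclusters led by Knl1 and by Clec7a, mostly of mCherry HFD, hold none either. Lipid-associated markers raised were 7 in the subcluster with Rn18s-rs5, and 9 and 8 in those led by Knl1 and Clec7a. Over pooled libraries, Gpnmb was at 1172 CPM in the subcluster with Rn18s-rs5 and at 659.8 in that led by Clec7a. Lgals3 (1178 and 767.8), Cd9 (146.1 and 110.4) and Plcg2 (146.1 and 128.4) were also higher in the former. Trem2 (59.1 and 95.3), Tyrobp (33.4 and 85.0), Spp1 (0.619 and 8.88) and Syk (719.6 and 926.2) were lower in it. With the subcluster with Rn18s-rs5 left out, a choice made after the data were seen, the shares were 0% in both mCherry SD mice. They were then 79.7 and 79.3% in mCherry HFD, 10.4 and 0.722% in Tert HFD, and 0.521 and 1.6% in TertCi HFD. The shares also depend on the baseline for naming, which was chosen after the data were seen. Named against the lower quartile, 1 subcluster kept the name, with 0% in both mCherry SD mice, 40.3 and 27.9% in mCherry HFD, 4.18 and 0% in Tert HFD, and 0.104 and 0% in TertCi HFD. Summed perivascular markers over the whole class ran the other way, at 9261 to 10531 CPM in mCherry SD against 2753 to 3074 in mCherry HFD, 3771 to 8387 in Tert HFD and 6395 to 8594 in TertCi HFD. The fold changes above join this shift between subclasses to any change inside them.

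Pooled over libraries, 6 members were highest in the subcluster with the strongest lipid-associated markers, and Syk and Plcg2 were not. The pooled levels mix subcluster with group, since nearly all of that subcluster came from mCherry HFD (1472 and 392 of its 1900 nuclei), against 4 and 14 of the 1960 nuclei of the larger perivascular-like one. Among the 4 subclusters with 20 or more nuclei in each mCherry HFD mouse, Trem2, Gpnmb, Spp1 and Lgals3 were highest in it in both mice, Trem2 at 148.1 and 143.6 CPM. Tyrobp and Cd9 were highest there in rep128 but not in rep129. The subcluster, led by Hmga2, Il1rn and Mmp12, had 146.7 CPM of Trem2, 2941 of Gpnmb and 235.3 of Cd9 over all its nuclei. Tyrobp was at 90.5 CPM there and at 82.6 in the perivascular-like subcluster made up mostly of mCherry HFD nuclei. The larger perivascular-like subcluster, led by Ednrb and F13a1, had 8.89 CPM of Trem2, 29.6 of Gpnmb and 9.35 of Cd9. Pooled in the same way, Syk was at 618.7 and 706.7 CPM in the perivascular-like subclusters and at 716.1 to 926.2 in the 4 lipid-associated-like ones, highest in one led by Clec7a. Pooled Plcg2 levels were 167.0 and 162.4 CPM in the perivascular-like and 114.6 to 146.1 in the lipid-associated-like subclusters, lowest in one led by Knl1, Top2a and other genes of dividing cells.

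In the nuclei named lipid-associated-like, Trem2 and Tyrobp were lower in both Tert groups. Most such nuclei of the Tert groups lay in a subcluster that held few of mCherry HFD, so subcluster and group cannot be told apart here. The standard-diet mice had 6 and 10 such nuclei and were not tested. Trem2 was at 127.8 and 109.7 CPM in mCherry HFD, 76.4 and 47.3 in Tert HFD, and 55.6 and 52.3 in TertCi HFD. Tyrobp was at 87.3 and 76.3, 36.6 and 33.2, and 26.5 and 43.0 CPM in the same order. The mCherry HFD pair was above the other 4 mice for both genes. The log2 fold changes of Trem2 were -0.79 in Tert HFD (SE 0.195, adjusted p = 0.0395) and -0.97 in TertCi HFD (SE 0.217, adjusted p = 0.0273), and those of Tyrobp -1.10 (SE 0.237, adjusted p = 0.0248) and -1.23 (SE 0.269, adjusted p = 0.0257) in edgeR. In Tert HFD the call of Trem2 held in 7 of 16 alternatives and was lost with DESeq2, and that of Tyrobp held in 10 of 16. In TertCi HFD each held in 10 of 14. With 2 members lower in Tert HFD and 3 in TertCi HFD, 5.63 and 5.57% of all 10683 genes were lower in these comparisons.

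Spp1 was also counted as lower in TertCi HFD, and its call is a description for the reason given above. It was at 11.5 and 20.0 CPM in lipid-associated-like nuclei of mCherry HFD, 7.98 and 1.28 in Tert HFD, and 0 in both TertCi HFD mice, at least 6.33-fold lower over the group. The call was lost without rep129, rep138 or rep140. Without Spp1, 2 of 7 members were lower in each Tert group. Gpnmb was at 1971 and 1575 CPM, 1334 and 909.2, and 1206 and 1199, and its log2 fold changes of -0.53 and -0.39 did not pass (edgeR adjusted p = 0.0664 and 0.145). In Tert HFD Gpnmb passed as lower in 4 of 16 alternatives, namely with no filter on low counts, with DESeq2, without rep134 and at Leiden resolution 2.0 (adjusted p 0.00214 to 0.0486). In TertCi HFD it passed with no filter (edgeR adjusted p = 0.0267). Plcg2, at 0.52 in TertCi HFD (edgeR adjusted p = 0.0682), passed as higher without rep134 or rep136. Cd9 ran from 121.3 to 182.3 CPM and Lgals3 from 780.3 to 1438 over these 6 mice. Neither Cd9 nor Lgals3 passed, and Lgals3 overlapped between all 3 groups.

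Different nuclei carried this subclass in mCherry HFD and in the Tert groups. In mCherry HFD most lay in the subcluster led by Hmga2 (1472 and 392 nuclei) and one led by Clec7a (1140 and 646 nuclei). In the Tert groups most lay in a subcluster with a median of 2847 UMIs, led by Mir6236 and Tmem267 and, among its first 10 genes, Rn18s-rs5 and the adipocyte-expressed Ghr, with 496 nuclei of rep136 in Tert HFD and 276 and 81 in TertCi HFD. Summed adipocyte markers in lipid-associated-like nuclei were 282.4 to 338.5 CPM in mCherry HFD, 507.0 to 511.2 in Tert HFD and 427.3 to 633.1 in TertCi HFD, and their part was not tested. Rn18s-rs5 was at 2967 and 7017 CPM in these nuclei of mCherry HFD, 11074 and 80168 in Tert HFD, and 29910 and 54169 in TertCi HFD. Only 1 and 16 nuclei of mCherry HFD lay in that subcluster, too few to compare the groups within it. With it left out, Tert HFD kept 87 nuclei of rep134, TertCi HFD could not be fitted, and 0 of 8 members passed in Tert HFD, with Trem2 at -0.60 and Tyrobp at -1.65 (edgeR adjusted p = 0.239 and 0.0632), where rep134 alone is assumed to vary like the mCherry HFD mice. The counts of members called fell to 0 in Tert HFD without rep128, rep129 or rep140, and to 1 without rep136 or rep138. In TertCi HFD they fell to 0 or 1 without rep128, rep129, rep138 or rep140. The calls in this subclass thus depended on single mice. When subclusters were named against the lower quartile, Tert HFD kept 35 nuclei of rep134 and 0 of rep136, and TertCi HFD could not be fitted. No count of calls is given for that 1 mouse.

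Perivascular-like macrophages, which lie along vessels in lean fat, showed changes in 5 of the genes. Of 7 members tested, Trem2, Tyrobp, Gpnmb, Cd9 and Lgals3 rose with diet, as did 8.61% of all 9072 genes. All 5 were lower in Tert HFD (7.88% of all genes) and in TertCi HFD (11.4%). Trem2 was at 6.63 and 3.04 CPM in mCherry SD (4 UMIs), 82.0 and 46.8 in mCherry HFD, 14.9 and 16.7 in Tert HFD, and 9.45 and 4.75 in TertCi HFD. TertCi HFD overlapped the standard-diet mice and mCherry HFD overlapped none. Its log2 fold changes were 3.83 with diet (SE 0.571, adjusted p = 0.00054), -2.06 in Tert HFD (SE 0.342, adjusted p = 0.00119) and -2.89 in TertCi HFD (SE 0.374, adjusted p = 0.000128) in edgeR. The Tert call of Trem2 was lost without rep128 (edgeR adjusted p = 0.0872), the diet call of Cd9 without rep146 (0.110) and the Tert call of Gpnmb with DESeq2 (0.0599). The diet value of Trem2 was 3.14 without rep146 and 3.15 at Leiden resolution 2.0, and its TertCi value -3.67 without rep138.

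Gpnmb had the widest changes of this subclass with diet and in TertCi HFD. The standard-diet mice had 2 UMIs of Gpnmb in all, against 530.3 and 338.3 CPM in mCherry HFD, a ratio of 240.9 between the pooled levels (95% exact interval 66.6 to 1990, counting error only). Gpnmb was at 118.0 and 74.2 CPM in Tert HFD and 16.1 and 42.8 in TertCi HFD, with log2 fold changes of -2.03 and -4.10 against mCherry HFD (edgeR adjusted p = 0.000635 and 1.23e-05). The TertCi value of Gpnmb was -3.22 without rep138. Tyrobp stayed at 13.3 to 22.2 CPM in the 6 mice outside mCherry HFD and reached 87.0 and 85.8 there. Syk (491.4 to 729.9 CPM) and Plcg2 (155.8 to 211.6 CPM) passed in none of the 3 comparisons. Between Tert HFD and TertCi HFD 0 of the 7 passed by edgeR or DESeq2 (0% of all genes). There 480 and 170 genes had an unadjusted p under 0.05. Some members passed by edgeR without rep136 or rep140, fits that leave 1 mouse in a group and for which no share of all genes is given.

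This subclass also lay in different nuclei between groups. Of the 2 perivascular-like subclusters, one held 87 and 141 nuclei of mCherry SD and 165 to 678 of each Tert and TertCi mouse but 4 and 14 of mCherry HFD. The other held 736 and 261 of mCherry HFD and at most 63 of any other mouse, and besides its perivascular markers 8 lipid-associated markers were raised in it. Summed perivascular markers in the subclass were alike in the groups, at 8116 to 11827 CPM over all 8 mice. Summed lipid-associated markers were higher in mCherry HFD, at 2833 and 3834 CPM, than in the other 6 mice (1048 to 2072 CPM). Their part in the members' values was not tested.

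**Figure D3:**
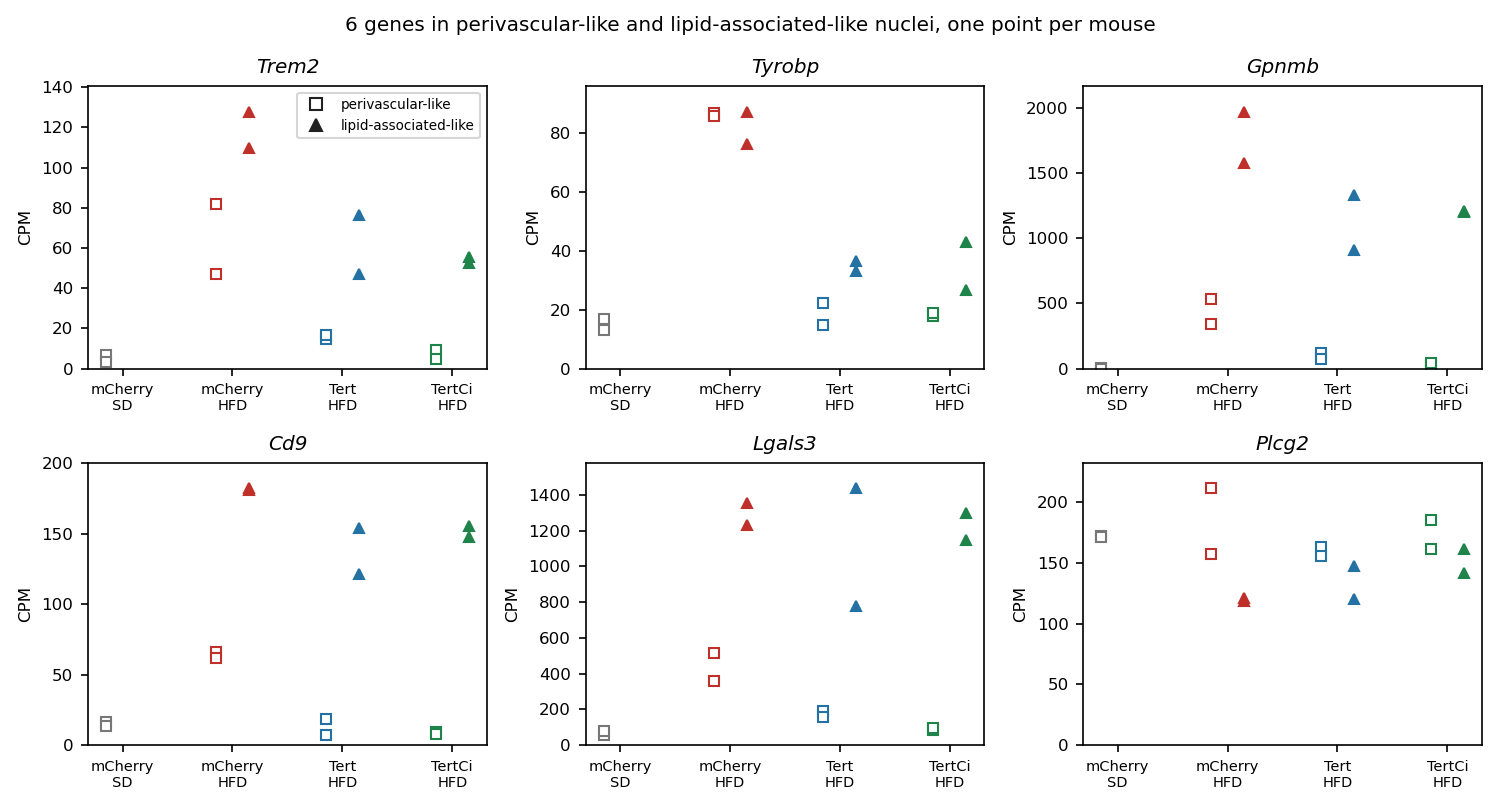
Level (CPM) of 6 genes in perivascular-like (open squares) and lipid-associated-like nuclei (filled triangles), with 1 point per mouse and libraries of under 20 such nuclei left out. Trem2, Gpnmb, Cd9 and Lgals3 are higher in the lipid-associated-like than in the perivascular-like nuclei of every mouse shown with both, and Plcg2 is not.

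**Figure D4:**
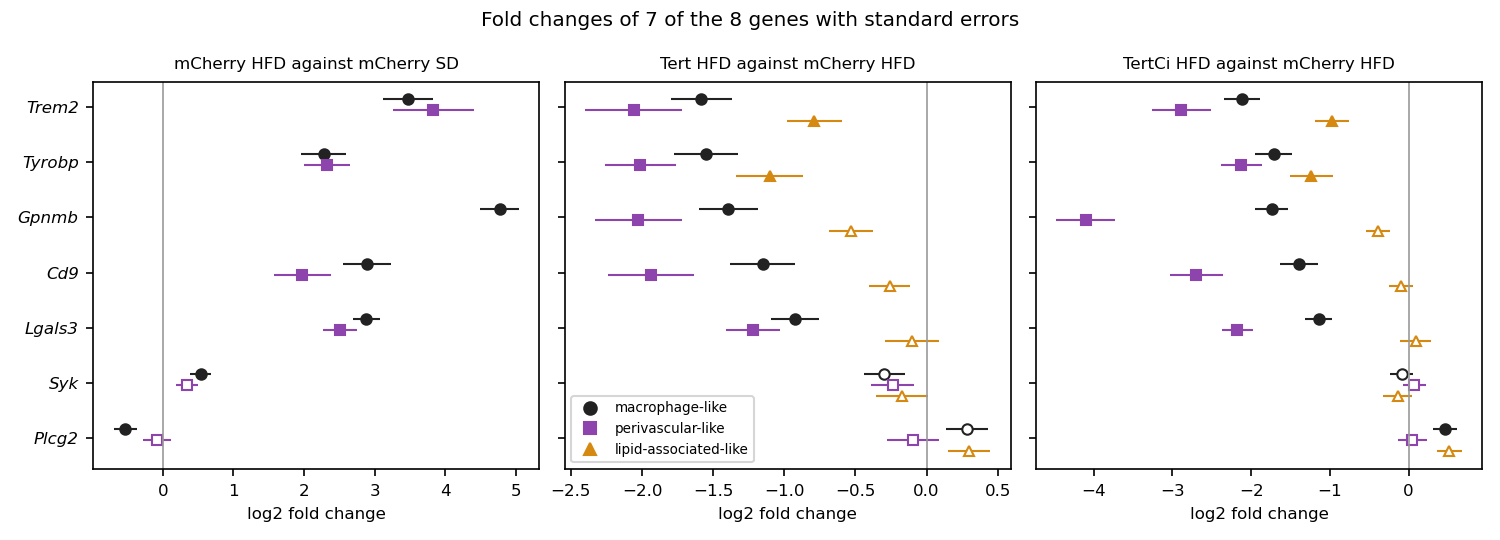
Log2 fold change (edgeR, bars are standard errors) of 7 genes in macrophage-like, perivascular-like and lipid-associated-like nuclei for 3 comparisons, where a filled point has an adjusted p under 0.05. Spp1 is left out because whole groups were at 0 UMIs, and Gpnmb in perivascular-like nuclei with diet because 2 UMIs stood against it. Against mCherry HFD, the 5 called genes lie further from 0 in perivascular-like than in lipid-associated-like nuclei, while Syk and Plcg2 lie closer to 0 than Trem2 and Tyrobp in both.

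Counted per nucleus, Trem2 was found in more macrophage-like nuclei of mCherry HFD than of any other group. Each nucleus was first thinned to 1000 UMIs so that depth was equal, which left out 25 shallower macrophage-like nuclei of Tert HFD rep136. Trem2 then had a UMI in 0 of 93 (which allows up to 3.23%) and 1 of 151 nuclei (0.662%) in mCherry SD. Its shares were 11.2 and 8.84% in mCherry HFD, 3.70 and 3.97% in Tert HFD, and 2.08 and 2.40% in TertCi HFD. The 4 groups did not overlap (exact permutation test of the F statistic over 4 groups, p = 0.00952, the smallest these 8 mice allow, and 0.0190 adjusted over 2 shares). Thinned to 2000 UMIs they did not overlap either. Without thinning Tert HFD, at 16.1 and 5.54%, overlapped TertCi HFD, at 7.71 and 7.20%. In adipocyte-like nuclei, which should lack the gene, the thinned shares were 0.106 to 0.149% in mCherry SD, 3.11% and 0 of 62 (which allows up to 4.84%) in mCherry HFD, 0.218 to 0.919% in Tert HFD and 0.269 to 0.364% in TertCi HFD. The 0 of mCherry SD rep144 is not above that background, and the share of rep146 rests on 1 nucleus. Without thinning, Trem2 was in 52.3 and 24.3% of macrophage-like nuclei of mCherry HFD (median 6384 and 2632 UMIs per nucleus) and in 32.1 and 11.3% of its adipocyte-like nuclei (median 13529 and 6166 UMIs). The unthinned shares are therefore read with that background and not as shares of expressing nuclei.

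Trem2 and Gpnmb together were found, after the same thinning, in 0 of 93 and 1 of 151 macrophage-like nuclei (0 and 0.662%) in mCherry SD. The joint share was 6.36 and 4.78% in mCherry HFD and 1.67 and 2.23% in Tert HFD. In TertCi HFD it was 0.417 and 0.80%, from 4 and 2 nuclei. The mCherry HFD and Tert HFD mice overlapped no other group, and TertCi HFD overlapped mCherry SD (exact permutation p = 0.0190, also 0.0190 adjusted over 2 shares). In adipocyte-like nuclei the pair was found in 3 of 193 (1.55%) and 0 of 62 (which allows up to 4.84%) in mCherry HFD, in 0.184% and 0 of 916 (up to 0.328%) in Tert HFD, and in 0 in every mouse of the other 2 groups (up to 0.161 to 0.545%). Gpnmb alone was in 11.9 and 22.6% of adipocyte-like nuclei of mCherry HFD, 2.76 and 3.17% in Tert HFD, 1.40 and 1.27% in TertCi HFD, and 0.298 and 0.106% in mCherry SD. By group means this background ran in the same order as the joint share, and its part in the test was not tested. Of the 3 depths tried, Tert HFD and TertCi HFD were apart at this one only. Thinned to 2000 UMIs, which leaves out most nuclei of rep136, the joint share was 2.98 and 0.775% in Tert HFD and 1.35 and 3.20% in TertCi HFD. Without thinning it was 10.1 and 3.01% against 3.54 and 4.40%. With the narrower naming mCherry HFD, at 2.26 and 1.84%, overlapped Tert HFD, at 1.41 and 2.13%. There the adjusted p of the joint share was 0.0571, and without thinning that of both shares was 0.0667, by the same exact permutation test. Within the mCherry HFD mice, Gpnmb was in 57.0 and 54.0% of nuclei with Trem2 and in 47.5 and 45.9% of nuclei without it. In Tert HFD it was in 45.2 and 56.3% of 31 and 32 nuclei with Trem2 against 14.9 and 25.2% without. Lgals3 went the same way in mCherry HFD, at 62.4 and 69.4% of nuclei with Trem2 against 57.0 and 52.2% without.

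Of the signalling partners, Tyrobp, the adaptor of Trem2, was in 7.37 and 7.26% of Trem2 nuclei of mCherry HFD and in 7.71 and 8.68% of the other nuclei. Plcg2 was in 11.5 and 12.1% against 12.5 and 11.5%. Syk was in 54.1 and 58.1% against 54.1 and 51.1%. These shares are descriptions over nuclei of single mice.

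Of the 8 genes, a thinned macrophage-like nucleus held on average 0.591 and 0.649 in mCherry SD, 2.06 and 1.95 in mCherry HFD, 1.19 and 1.21 in Tert HFD, and 1.02 and 1.24 in TertCi HFD. At least 3 of them were found in 2.15 and 2.65% of nuclei in mCherry SD and in 36.0 and 31.4% in mCherry HFD. In Tert HFD that share was 12.9 and 10.7%, and in TertCi HFD 8.02 and 14.8%. Nuclei with none of the 8 ran the other way, from 51.6 and 51.7% in mCherry SD to 9.40 and 10.6% in mCherry HFD.

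**Figure D5:**
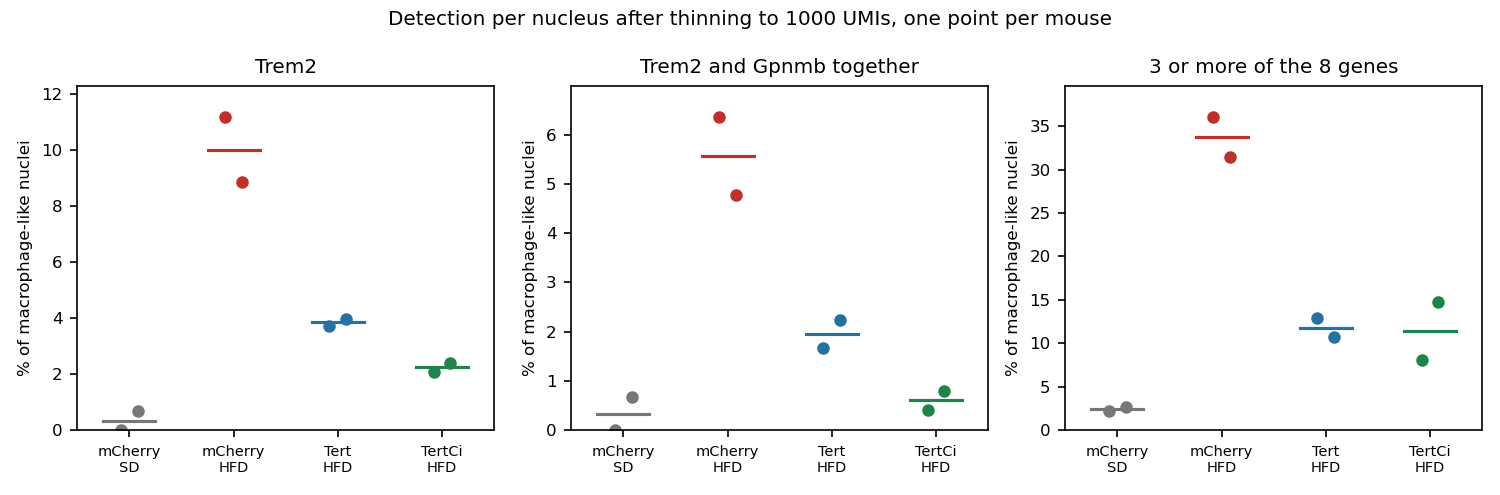
Share (%) of macrophage-like nuclei, each thinned to 1000 UMIs, with a UMI of Trem2, of Trem2 and Gpnmb together, and of 3 or more of the 8 genes, with 1 point per mouse and a line at the group mean. Both mCherry HFD points are above all others in each panel, and both mCherry SD points are lowest in the panels of Trem2 and of 3 or more genes.

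Over all called nuclei, in which the share of macrophages enters the level, all 8 genes rose with diet (Plcg2 not in most alternatives), as did 22.2% of all 21101 genes. There 7 of 8 were lower in Tert HFD (10.9% of all genes) and 7 in TertCi HFD (19.4%), the exception in both being Plcg2. Without rep128 the count in Tert HFD was 4. Fewer macrophages and less RNA per macrophage cannot be told apart in this measure. Trem2 was at 2.07 and 1.57 CPM in mCherry SD, 71.7 and 61.9 in mCherry HFD, 10.3 and 8.39 in Tert HFD, and 4.61 and 2.96 in TertCi HFD. Each group of Trem2 lay apart from the others. Its log2 fold changes were 4.75 with diet (SE 0.271, adjusted p = 4.62e-05), -2.48 in Tert HFD (SE 0.238, adjusted p = 0.00112) and -3.66 in TertCi HFD (SE 0.250, adjusted p = 0.000127) in edgeR. Plcg2 was at 0.54 with diet over all nuclei (SE 0.178, adjusted p = 0.0418 by edgeR). That call held in 5 of 14 alternatives and was lost without any 1 mouse other than rep144, in nuclei of at least 2000 UMIs and over all barcodes, with an edgeR adjusted p of up to 0.292.

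Members also passed in classes that are not macrophages. In adipocyte-like nuclei 5 of 7 tested rose with diet (13% of all 14524 genes), 4 were lower in Tert HFD (2.6%) and 6 in TertCi HFD (9.24%). Trem2 passed the filter on low counts there through the mCherry HFD libraries, with 1 other library at the filter level, so its calls are descriptions. Without Trem2, 4 of 6 rose with diet, 3 were lower in Tert HFD and 5 in TertCi HFD. Trem2 there was at 1.58 and 1.21 CPM in mCherry SD, 29.7 and 16.1 in mCherry HFD, 4.16 and 2.05 in Tert HFD, and 2.09 and 1.56 in TertCi HFD. In progenitor-like nuclei 4 of 7 tested rose with diet (7.88% of all 12121 genes), and 4 were lower in Tert HFD (7.32%) and in TertCi HFD (12.2%). Trem2 and Tyrobp reached the filter level there in mCherry HFD only, and without them 2 of 5, Gpnmb and Lgals3, rose with diet and 2 were lower in each Tert group. Trem2 had no UMI in progenitor-like nuclei of mCherry SD, which allows up to 1.49 CPM, and 15.2 and 15.9 CPM in mCherry HFD, at least 10.2-fold higher.

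Summed macrophage markers were also highest in mCherry HFD in both classes. Their sum in adipocyte-like nuclei was 519.8 to 610.2 CPM in mCherry SD against 761.5 to 916.3 in mCherry HFD, 430.2 to 753.5 in Tert HFD and 459.3 to 507.7 in TertCi HFD, with all 8 markers above 0 in every mouse. In progenitor-like nuclei it was 131.4 to 135.8, 297.5 to 355.7, 172.2 to 228.9 and 146.5 to 155.5 CPM in the same order, with at most 1 of the 8 at 0 in a mouse. Their part in the calls of these 2 classes was not tested. The adipocyte-like calls in Tert HFD fell from 4 to 0 without rep128 or rep129 and to 1 without rep136, and also to 0 with putative doublets kept or at a Leiden resolution of 2.0. In TertCi HFD they fell from 6 to 0 without rep128 and to 1 at that resolution, and with diet from 5 to 3 without rep128 or at that resolution. The progenitor-like calls in Tert HFD fell to 1 without rep128 or rep129 and to 2 without rep134, and those with diet fell to 2 without rep146.

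Genes around the members were read in macrophage-like nuclei from 10 lists. Over all 13267 genes tested there, 11.4% rose and 9.14% fell with diet, and 11% were lower in Tert HFD. In TertCi HFD 14.2% were lower and 9.7% higher. These shares stand beside the counts given below for each list and for markers of other cells. No share is given for genes higher in Tert HFD, so the counts of such genes below stand without one. Among 4 ligands of Trem2 only Apoe, the lipoprotein component that Trem2 can bind, had counts enough for a test. It rose by a log2 fold change of 2.39 with diet (SE 0.666, edgeR adjusted p = 0.0249), was at -1.61 in TertCi HFD (SE 0.540, adjusted p = 0.0478), and did not pass in Tert HFD (-1.43, adjusted p = 0.0795). Of 9 other receptors and adaptors with or paired with activating motifs, 4 were tested and 1, Pilrb1, fell with diet by 2.01. In Tert HFD 1 of the 4 was higher (Clec5a, 1.42) and 1 lower (Sirpb1a, -1.07). In TertCi HFD 1 was higher (Pilrb1, 1.53) and 2 were lower (Fcer1g, an adaptor like Tyrobp, at -1.02, and Sirpb1a at -1.19).

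The signalling genes downstream of Syk and Plcg2 did not move as a block. Of 17 tested, 4 rose with diet and 4 fell, larger shares than the 11.4 and 9.14% of all genes. Their median log2 fold change was 0.08 beside 0.11 over all genes. The kinase Prkcd rose by 1.38 and the adaptor Blnk by 1.08, while Pik3r1, a regulatory subunit of PI3-kinase, fell by 0.96. In Tert HFD 2 were higher and 1 lower, and in TertCi HFD 3 and 1. Among 10 genes listed as inhibitors of the pathway, 3 rose with diet and 1 fell (median 0.30). The inhibitory receptor Pirb rose by 1.72 and Sirpa by 1.17, and the ubiquitin ligase Cblb by 0.80. Cd33, a sialic-acid receptor placed in this list, fell by 1.71 with diet and was higher in Tert HFD (1.38) and TertCi HFD (1.81). Each value was past the threshold (edgeR adjusted p = 0.000509, 0.00133 and 0.0002). Whether mouse Cd33 inhibits the pathway was not tested. Of the 10 listed genes, 1 was higher and 2 lower in Tert HFD, and 2 and 2 in TertCi HFD.

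Neither protease that sheds Trem2 from the surface passed with diet or in Tert HFD. Adam10 was higher in TertCi HFD by 0.51 (SE 0.149, edgeR adjusted p = 0.026), and Adam17 was at -0.07. Of 10 transcription factors of lysosomal, lipid and macrophage genes, 4 rose with diet and 2 fell (median 0.55). The sterol-sensing receptor Nr1h3 (LXR alpha) rose by 2.21 and Pparg by 0.88, and Tfeb and Tfe3 also rose. Rxra, the partner of Nr1h3, fell by 1.28 and was higher in Tert HFD (1.33) and TertCi HFD (1.46), and Tfec fell by 1.19. Of the 10 factors, 2 were higher and 1 lower in Tert HFD, and 1 and 2 in TertCi HFD.

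Genes of the lipid-associated programme other than the members moved like most of the members. Of 19 tested, 17 rose with diet and 1, the cholesterol exporter Abca1, fell, with a median log2 fold change of 2.63. In Tert HFD 14 were lower and 1 higher (median -1.01), and in TertCi HFD 16 were lower and 1 higher (median -1.15), Abca1 being the higher one in both. Fabp5, a fatty-acid carrier, was at 5.22 with diet, -2.54 in Tert HFD and -3.76 in the TertCi HFD mice. The elastase Mmp12 was at 4.02, -0.83 and -1.06, the integrin Itgax at 3.96, -0.81 and -1.04, and the phosphatase Acp5 at 3.76, -1.90 and -1.76. Of the 19 genes, 9 named the subclusters. The other 10 had 8 higher and 1 lower with diet, 1 higher and 6 lower in Tert HFD, and 1 higher and 8 lower in TertCi HFD.

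Partners of 3 other members were mixed. Of 7 receptor genes for Spp1, the integrin chains Itgav (2.60) and Itgb5 (1.67) and the hyaluronan receptor Cd44 (1.30) rose with diet and Itga9 fell by 1.06. Itgav and Itgb5 were lower in Tert HFD (-0.98 and -0.78) and in TertCi HFD (-1.21 and -0.79), where Itga9 was higher (0.77). None of 7 tetraspanins and partners of Cd9 passed with diet by edgeR (the largest value was that of Cd151 at 1.58, adjusted p = 0.166), and Cd151 was lower in Tert HFD (-1.78) and, with Cd37 (-0.98), in TertCi HFD (-1.45). A list of 4 genes held other galectins and Lgals3bp, a galectin-3-binding protein that is no galectin. In it Lgals1 followed Lgals3, with 2.24 with diet, -2.38 in Tert HFD and -2.50 in TertCi HFD. Lgals3bp was at -2.0 in TertCi HFD.

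Markers of other cells moved within macrophage-like nuclei as well. Of 8 adipocyte markers 5 were lower with diet and 5 higher in each Tert group. Their sum was 706.0 to 1088 CPM in mCherry SD against 295.8 to 352.0 in mCherry HFD, 550.3 to 551.3 in Tert HFD and 604.1 to 704.1 in TertCi HFD. All 5 markers of dividing cells rose with diet (sum 6.17 to 17.1 against 107.0 to 127.6 CPM), and 4 and 3 of them were lower in Tert HFD and TertCi HFD. Summed macrophage markers were lower in mCherry HFD than in mCherry SD, and Tert HFD spanned both, at 3826 to 4359 CPM in mCherry SD against 3172 to 3269 in mCherry HFD, 2587 to 4359 in Tert HFD and 3570 to 3905 in TertCi HFD. The part of these other cells in the members' values was not tested.

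The genes most like Trem2 across the 8 libraries in macrophage-like nuclei were Dot1l (Pearson r = 0.992), Lrp1 (0.992), Lpl (0.990), Anxa2 (0.990) and Evl (0.989), of 8460 genes ranked on log2 CPM. Lrp1 is a lipoprotein receptor and Lpl the lipase that releases fatty acids from lipoproteins. Among the members Lgals3 ranked 79 (0.962), Tyrobp 93 (0.959), Gpnmb 114 (0.952) and Cd9 250 (0.924), and Syk ranked 1374 (0.739). Plcg2 was near the far end at rank 8347 (-0.946). The 8 points are 4 groups of 2 mice and share libraries, so these values describe the group pattern and carry no test.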

How the data were processed

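Nuclei from frozen visceral white adipose tissue of 8 mice were measured with 10x 3' chemistry, 1 library per mouse. The deposited values are raw UMI counts per gene and barcode; per the file headers they were written by Cell Ranger 7.1.0, and per the submitters' processing notes Cell Ranger 5.0.1, bcl2fastq 2.20.0 and the build mm39 were used, a difference that was not resolved. Libraries held 23378488 to 139749876 UMIs, and exact intervals and the floor of 3 counts cover counting error only.

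Barcodes were called nuclei above 0.1 of the 99th percentile of the top 5000 barcodes, with at least 500 UMIs, 300 genes and at most 5% mitochondrial UMIs. The automatic doublet threshold marked too few barcodes, so the highest doublet scores were removed at 0.8% per 1000 nuclei (1211 nuclei). Nuclei were clustered with scanpy 1.11.5 (Python 3.11.15) on 1988 variable genes without the members, 30 components, 15 neighbours and a Leiden resolution of 1.0. Clusters were named from marker lists without members, and those with a second lineage were called mixed.

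UMIs were summed per mouse and class with at least 20 nuclei. All mice with such a class entered 1 edgeR 4.0.16 quasi-likelihood fit (R 4.3.3, TMM factors, filterByExpr) with 4 contrasts, and p-values were adjusted by Benjamini-Hochberg over all genes. On simulated counts for the diet contrast in macrophage-like nuclei (13267 genes), 93% of changes of log2 2 and 98% of log2 3 were recovered. Shares of nuclei were compared after thinning to 1000 UMIs by an exact permutation test of the F statistic. DESeq2 1.42.0, other factors, filters and clusterings, and leaving out each mouse were alternatives.

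The members and the 10 lists of 89 genes were chosen with earlier results of these data known. From each list up to 4 genes were named, those past the threshold with the largest diet change or, where fewer than 2 passed, those of smallest adjusted p, and for Trem2 the 5 genes of highest correlation. Other genes named (Abca1, Tfeb, Tfe3) were picked after their values were seen. A gene that the rule selects is not reported here. Chosen after the data were seen were a wider set of macrophage markers in naming (the first version left 3021 nuclei unnamed), the baseline for naming subclusters, the perivascular-like fit, leaving out a subcluster and the promoter motifs. A planned monocyte-like subclass was not found among the macrophage-like nuclei, where alone it was sought. A cluster of 832 nuclei with Cd226, Skint3 and Ccr2 among its leading genes was named mixed and lay outside that class. The other clusterings had 639, 668 and 644 macrophage-like nuclei in a subcluster led by Cd226.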

Additional observations from a re-analysis of the deposited data

How the results depend on the processing

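No paired analysis was possible because the replicate numbers differ between the groups. Of 360 counts of members called under an alternative, 39 moved by over 1.5 times. Of 1529 single fold changes, 104 lost their call and 22 turned direction. Some alternatives leave fewer mice or nuclei and others the same or more, and the cause of these changes was not tested. With narrower naming, macrophage-like counts were 5 (diet), 3 (Tert) and 3 (TertCi), Gpnmb and Lgals3 in Tert HFD were at 0.10 and 0.066, and Trem2 with Gpnmb differed by 1.72 percentage points between mCherry HFD and mCherry SD. Without thinning these differences were 35.2 percentage points for Trem2 and 30.7 for both. Against 0 for Tert HFD against TertCi HFD, counts were 4 (no filter) and 3 (DESeq2) over all nuclei, 2 (no filter) and 2 (nuclei of at least 2000 UMIs) in perivascular-like and 1 (no filter) in progenitor-like nuclei. The shares of all genes called under these settings are not given. The lipid-associated-like count in Tert HFD was 1 in nuclei of at least 2000 UMIs. Named against the lower quartile, or with the subcluster led by Mir6236 left out, Tert HFD was rep134 alone. Spp1 was then at 1.21 under the quartile naming. With that subcluster left out, Spp1 was at 0.26 and Lgals3 at 0.11. Adipocyte-like counts at resolution 2.0 were 3 (diet), 0 (Tert) and 1 (TertCi), and 0 in Tert HFD with doublets kept.

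Leaving out 1 mouse, counts ran (diet, Tert, TertCi) 7 to 8, 4 to 7 and 7 over all nuclei, 5 to 8, 5 to 6 and 4 to 7 in macrophage-like, 4 to 5, 4 to 5 and 5 to 6 in perivascular-like, 3 to 5, 0 to 5 and 0 to 6 in adipocyte-like, and 2 to 4, 1 to 4 and 4 to 6 in progenitor-like nuclei. In lipid-associated-like nuclei they ran 0 to 2 (Tert) and 0 to 4 (TertCi), and for Tert HFD against TertCi HFD 0 to 2 in perivascular-like nuclei and 0 in every other set. Log2 fold changes that turned direction, with their range on leaving out 1 mouse: over all nuclei Plcg2 in Tert HFD ran -0.19 to 0.0088 and was 0.018 over all barcodes. In macrophage-like nuclei Syk in TertCi HFD was 0.015 with doublets kept. In lipid-associated-like nuclei Lgals3 ran -0.44 to 0.17 and Syk -0.48 to 0.078 in Tert HFD, where Lgals3 was 0.032 in nuclei of at least 2000 UMIs; in TertCi HFD they ran -0.035 to 0.22 and -0.32 to 0.0043, and Lgals3 was -0.017 with members among the variable genes and -0.047 at resolution 2.0. In perivascular-like nuclei Plcg2 ran -0.27 to 0.16 (diet), -0.33 to 0.098 (Tert) and -0.19 to 0.24 (TertCi), and in Tert HFD was 0.11 with doublets kept, 0.13 with members among the variable genes and 0.15 at resolution 2.0.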
